A study of Homo sapiens with 15 samples.

Results

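IFNB1 encodes interferon beta, the antiviral cytokine that most non-immune cells release first when they detect foreign nucleic acid, and 9 further genes encode proteins that detect DNA or RNA or carry the signal to its promoter. These 10 members were taken from the deposited gene table by symbol (CGAS, STING1, IFI16, DDX58, IFIH1, TLR3, MAVS, TBK1, IRF3 and IFNB1; DDX58 is also called RIGI), out of 37787 genes in all, and all 10 were among the 13868 genes tested. IFNB1 was treated as chosen by its fold change between FOXL2C134W and the other conditions without FOXO1. Its values in any comparison that uses Vectors, FOXL2WT or FOXL2C134W libraries are therefore given as a description with no test. Its values between the conditions with FOXO1 are a description too, because of a filter on low counts explained below. The other 9 were picked for their place in the pathway, with earlier results of these data known.

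The libraries came from HGrC1, an immortalized, non-luteinized human granulosa cell line whose own FOXL2 alleles are normal, used at passage 14. Cells were transiently transfected for 4 h and then kept without serum for 24 h, with 3 libraries (A, B and C) for each of 5 conditions. Vectors received control plasmids. FOXL2WT and FOXL2C134W received SMAD3 with wild type FOXL2 or with FOXL2 carrying C134W, the substitution that marks adult granulosa cell tumors. FOXL2WT+FOXO1 and FOXL2C134W+FOXO1 additionally received FOXO1-3A, a constitutively active, nuclear form of FOXO1. The model is thus a short overexpression in 1 line that keeps its own FOXL2, and the sources used here do not say that replicates were separate cultures, so p-values measure the spread between these libraries, which may be technical.

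Cytosolic DNA is detected by cGAS, whose cyclic dinucleotide product activates STING1, and long or 5′-triphosphate RNA is detected by IFIH1 (MDA5) and DDX58 (RIG-I), which signal through MAVS on mitochondria. Both routes converge on the kinase TBK1, which phosphorylates IRF3. IRF3 then binds the IFNB1 promoter together with NF-kappaB and the ATF2-JUN dimer, and the secreted interferon acts through its receptor to induce further antiviral genes, several of the sensors among them.

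IFNB1 lies on chromosome 9 at 21077104 to 21077942, on the minus strand of GRCh38 (GENCODE 44), and its 839-base transcript has 1 exon. RefSeq promoters (GRCh38.p14) were matched for 7 of the 10 members. The 250 bases before the start are shown for IFNB1, because they hold the elements that its activators are known to bind, and for DDX58 and IFIH1, the cytosolic RNA sensors. Capitals mark matches to an IRF core (AANNGAAA), an NF-kappaB core (GGAANNTCC) and the ATF-JUN element of IFNB1 (TGACATAG) on either strand, and matches that touch run together. The windows are chr9:21077943-21078192 for IFNB1, chr9:32526197-32526446 for DDX58 and chr2:162318685-162318934 for IFIH1, all written 5′ to 3′ on the minus strand.
IFNB1: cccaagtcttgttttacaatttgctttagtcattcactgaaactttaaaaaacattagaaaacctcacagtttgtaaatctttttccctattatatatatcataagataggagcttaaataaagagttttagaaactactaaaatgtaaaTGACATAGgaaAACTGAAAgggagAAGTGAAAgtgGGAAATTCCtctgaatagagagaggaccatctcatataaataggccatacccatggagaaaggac
DDX58: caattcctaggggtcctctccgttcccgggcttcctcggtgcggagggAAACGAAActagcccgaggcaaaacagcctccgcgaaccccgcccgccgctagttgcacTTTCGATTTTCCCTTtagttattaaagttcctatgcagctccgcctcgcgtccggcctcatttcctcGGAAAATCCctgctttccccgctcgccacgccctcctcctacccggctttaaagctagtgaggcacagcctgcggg
IFIH1: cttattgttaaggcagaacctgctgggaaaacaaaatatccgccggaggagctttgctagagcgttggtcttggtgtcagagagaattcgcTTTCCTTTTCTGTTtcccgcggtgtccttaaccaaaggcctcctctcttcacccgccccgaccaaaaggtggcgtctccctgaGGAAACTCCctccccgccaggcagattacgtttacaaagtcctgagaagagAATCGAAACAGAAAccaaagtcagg

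In a window of 300 bases (250 before the start and 50 after), IFNB1 held the ATF-JUN element from base -100, the IRF core from -89 and -76 and the NF-kappaB core from -65, the last reading as a match on both strands. A TATA box (TATAAA) began at -31. Neither the forkhead letters GTAAACA nor the SMAD letters CAGAC occurred in that window. The DDX58 window held 3 IRF cores and 1 NF-kappaB core, and the IFIH1 window 4 IRF cores, in pairs that overlap by 2 bases, and 1 NF-kappaB core. TLR3 held 1 IRF core, across its start, and 1 CAGAC. TBK1 held 2 copies of CAGAC, and MAVS held none of these letters. IFI16 has 2 starts in the table: the window of one held 1 IRF core, from -128, and that of the other 2 overlapping IRF cores, from -58 and -53, and a TATA box letter match at -249. Over 35116 promoters of the same length, 22.8% held the IRF core, 4.56% the NF-kappaB core, 0.413% the ATF-JUN element, 11.5% the TATA box, 3.42% the forkhead letters and 45.3% CAGAC. These are matches of letters, not binding sites.

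**Figure D1:**
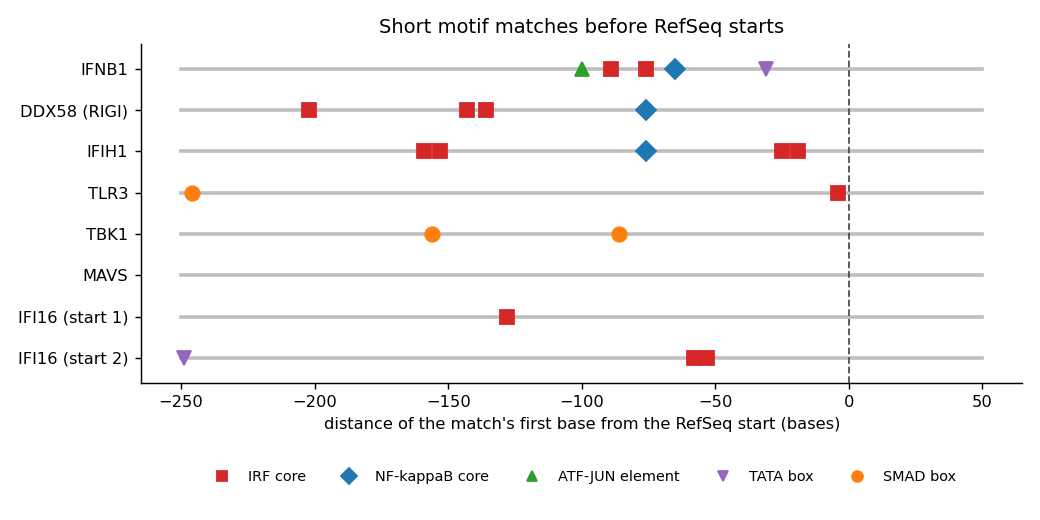
Matches to 5 short motifs in the RefSeq promoters of 7 members, with the distance of the first base from the start on the x axis in bases (the dashed line is the start) and a row per start, of which IFI16 has 2. IFNB1 has an ATF-JUN element, 2 IRF cores and an NF-kappaB core side by side, with first bases from -100 to -65, while the MAVS window has no match.

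Library totals ran from 14962245 to 25339094 counts. The transfected genes were higher where they had been added: FOXL2 ran from 8.28 to 9.54 CPM in Vectors (counts scaled to a common library total), from 554 to 566 in FOXL2WT, from 121 to 175 in FOXL2C134W, from 374 to 401 in FOXL2WT+FOXO1 and from 139 to 176 in FOXL2C134W+FOXO1. SMAD3 averaged 249 CPM in Vectors, 2768 in FOXL2WT, 843 in FOXL2C134W, 969 in FOXL2WT+FOXO1 and 392 in FOXL2C134W+FOXO1, and FOXO1 averaged 117 CPM in FOXL2WT+FOXO1 and 43.2 in FOXL2C134W+FOXO1 against 12.0 to 13.2 elsewhere. RNA of the transfected genes was thus lower with FOXL2C134W than with FOXL2WT. RNA of SMAD3 was also lower with FOXO1 added to either form, and RNA of FOXL2 was lower with FOXO1 added to FOXL2WT. For protein, the paper reports balanced levels of FOXL2WT, FOXL2C134W and FOXO1 in cultures run in parallel. The part of these RNA differences in the results below was not tested. Of 12 granulosa markers, FSHR was at 0 in all libraries, and AMHR2, CYP19A1 and INHA had at most 7, 4 and 4 counts, while GATA4 (1953 to 3716 counts) and WT1 (607 to 1157) were well detected. The summed level of the 12 was 249 to 258 CPM in Vectors, 781 to 790 in FOXL2WT and 359 to 409 in FOXL2C134W, with the transfected FOXL2 included. Of 7 leukocyte markers AIF1 was at 0 and PTPRC had at most 5 counts, and CD68 carried most of their summed level. That sum was 105 to 119 CPM in Vectors, 94.0 to 99.5 in FOXL2WT, 91.9 to 99.2 in FOXL2C134W, 91.0 to 97.0 in FOXL2WT+FOXO1 and 91.6 to 98.0 in FOXL2C134W+FOXO1. CD68 was called lower in FOXL2WT and in FOXL2C134W than in Vectors, and its part in the results against Vectors was not tested. The plasmacytoid dendritic cell markers LILRA4 and CLEC4C were at 0 in all libraries, and IL3RA had 1 to 7 counts. Endothelial markers were detected at low counts: PECAM1 10 to 53, VWF 7 to 27 and CDH5 33 to 102. Of the epithelial markers, KRT18 had 25523 to 46934 counts, EPCAM 71 to 188 and CDH1 2 to 12.

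IFNB1 had its lowest mean levels where FOXL2C134W was present, and was detected in every library at 2 to 41 counts. In Vectors it had 26, 41 and 41 counts (1.13, 2.03 and 1.64 CPM in A, B and C), and in FOXL2WT 24, 21 and 24 counts (1.28, 1.41 and 1.03 CPM). In FOXL2C134W it had 5, 3 and 9 counts (0.198, 0.125 and 0.415 CPM). With FOXO1, it had 6, 12 and 7 counts in FOXL2WT+FOXO1 (0.404, 0.557 and 0.337 CPM) and 2, 3 and 2 counts in FOXL2C134W+FOXO1 (0.0923, 0.128 and 0.0860 CPM). Vectors and FOXL2WT overlapped, and every library of the other 3 conditions lay below all 6 of them. The condition means were 1.60 ± 0.448, 1.24 ± 0.195, 0.246 ± 0.151, 0.432 ± 0.113 and 0.102 ± 0.0225 CPM (SD, n = 3) in the same order. In that order of levels, FOXL2C134W did not separate from FOXL2WT+FOXO1 or from FOXL2C134W+FOXO1. In a bulk sample, fewer cells that make IFNB1 and less IFNB1 RNA per cell cannot be told apart.

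**Figure D2:**
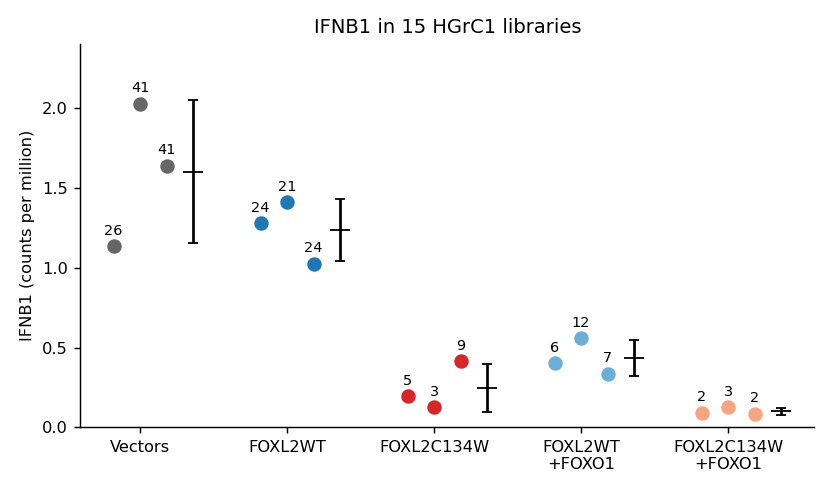
IFNB1 level in CPM in the 15 libraries, by condition (x axis, replicates A, B and C from left to right), with the raw count above each point and the mean ± SD as a black bar. The Vectors and FOXL2WT libraries lie from 1.03 to 2.03 CPM and those of the other 3 conditions from 0.0860 to 0.557 CPM.

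As a description, IFNB1 was lower in FOXL2C134W than in FOXL2WT by a log2 fold change of -2.32 (SE 0.40), and than in Vectors by -2.70 (SE 0.38). From the summed counts, 17 against 69, the level in FOXL2WT was 5.04 times that in FOXL2C134W (95% exact interval 2.93 to 9.15), and from 108 counts the level in Vectors was 6.61 times it (3.94 to 11.8). Between FOXL2WT and Vectors the log2 fold change was -0.38 (SE 0.31) with overlapping replicates. These intervals cover counting error only. Leaving out FOXL2C134W replicate C, the library of that condition with the most counts, made the falls larger, -2.87 against FOXL2WT and -3.25 against Vectors. Over all other settings and left-out libraries the smallest falls were -2.00 against FOXL2WT and -2.38 against Vectors.

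The fold change by which IFNB1 was treated as chosen used no library with FOXO1. Earlier results known at the choice may have covered these 6 libraries too. The FOXL2 forms were also compared there. IFNB1 entered that fit through the conditions where it is high: of the 7 libraries that reached the cutoff of the filter on low counts (0.458 CPM), 6 were of Vectors and FOXL2WT, 1 was of FOXL2WT+FOXO1 and 0 of FOXL2C134W+FOXO1, and the values are read as a description. IFNB1 had 7 counts in all in FOXL2C134W+FOXO1 and 25 in FOXL2WT+FOXO1, and the replicates did not overlap. The log2 fold change was -2.03 (SE 0.55). The edgeR quasi-likelihood adjusted p was 0.173, above the threshold, but because of that filter it decides nothing here. The level in FOXL2WT+FOXO1 was 4.27 times that in FOXL2C134W+FOXO1 from the summed counts (95% exact interval 1.80 to 11.7). Across 5 other settings the fold change stayed negative, between -2.22 and -1.78 with those that left out a library. The adjusted p, likewise not read as a test, ran from 0.0468, with genes kept at 1 count in any library, to 0.478.

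IFNB1 was also lower with FOXO1 added, as a description. SMAD3 RNA was lower in the same comparisons, as given above, so FOXO1 and less SMAD3 RNA cannot be told apart in them. Against FOXL2WT, FOXL2WT+FOXO1 had a log2 fold change of -1.48 (SE 0.38), a ratio of 0.362 from the summed counts (0.219 to 0.579), with no overlap. Against FOXL2C134W, FOXL2C134W+FOXO1 had -1.19 (SE 0.59), a ratio of 0.427 (0.150 to 1.08), with overlapping replicates, and -0.64 without FOXL2C134W replicate C. Of the other type I interferons, the 14 IFNA and IFNW1 genes of the table and IFNK had 0 counts in every library, which allows up to 3 counts each, and IFNE had at most 5.

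The sensors, adaptors and kinases had higher mean levels than IFNB1 and varied less between libraries. On the TPM scale, which corrects for transcript length, the mean level over the 15 libraries was 247 for IFI16, 134 for DDX58, 57.8 for IFIH1, 51.7 for IRF3, 45.0 for STING1, 32.9 for TBK1, 22.2 for TLR3, 6.22 for CGAS, 4.32 for MAVS and 1.42 for IFNB1. The TPM ranges of IFIH1, IRF3 and STING1 overlapped their neighbours in that order, as did those of CGAS, MAVS and IFNB1, and the other neighbours did not overlap. MAVS, whose main transcript is 11731 bases long, ranked next to CGAS on this scale. The highest CPM of a member was 1.23 to 1.54 times its lowest over the 15 libraries for the 9 sensors, adaptors and kinases, and 23.6 times for IFNB1.

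Among the DNA sensing members, STING1 fell where FOXL2 of either form was given together with SMAD3. FOXL2 and SMAD3 cannot be told apart in a comparison with Vectors, here or for the members below. STING1, the adaptor of the cGAS route (chromosome 5, 139475533 to 139482935, minus strand), had 77.3, 76.3 and 75.5 CPM in Vectors, 58.1, 61.4 and 63.9 in FOXL2WT and 56.2, 51.8 and 58.6 in FOXL2C134W. It stayed at 59.0, 61.8 and 63.9 CPM in FOXL2WT+FOXO1 and 57.4, 58.1 and 55.6 in FOXL2C134W+FOXO1. Every Vectors library was above every library with FOXL2. The log2 fold change against Vectors was -0.32 (SE 0.051, edgeR adjusted p = 0.0010) in FOXL2WT and -0.46 (SE 0.051, adjusted p = 9.90e-06) in FOXL2C134W, and both calls held in 6 of 6 fits that left out a library and under all 7 other settings. Between the FOXL2 forms the difference was -0.14 (SE 0.052, adjusted p = 0.0930) and the replicates overlapped.

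CGAS and IFI16, the DNA detectors upstream of STING1, were called in no comparison. CGAS (chromosome 6, 73413515 to 73452297, minus strand) ran from 13.2 to 18.5 CPM over all libraries. It had 16.5, 16.3 and 18.5 CPM in FOXL2C134W against 14.3, 15.2 and 15.1 in FOXL2WT, a log2 fold change of 0.20 (SE 0.097, adjusted p = 0.200) with no overlap. IFI16 (chromosome 1, 158999968 to 159055155, plus strand), the interferon-inducible DNA binding protein, ran from 442 to 552 CPM.

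The 3 RNA sensors were lower in FOXL2C134W than in Vectors. TLR3, the endosomal receptor for double-stranded RNA (chromosome 4, 186068911 to 186088073, plus strand), had 48.1, 50.8 and 49.4 CPM in Vectors, 47.9, 49.7 and 43.6 in FOXL2WT and 38.7, 39.2 and 39.9 in FOXL2C134W. The FOXL2C134W libraries lay below the other 6 without FOXO1. TLR3 fell by a log2 fold change of -0.33 against Vectors (SE 0.063, edgeR adjusted p = 0.0014) and of -0.26 against FOXL2WT (SE 0.064, adjusted p = 0.0131). The call against FOXL2WT was lost without FOXL2WT replicate A (adjusted p = 0.0531), FOXL2WT replicate B (0.0881) or FOXL2C134W replicate B (0.0567), and in DESeq2 with transcript length offsets (0.0944). With FOXO1, TLR3 was low with both forms, at 37.3, 42.5 and 44.3 CPM in FOXL2WT+FOXO1 and 40.1, 39.1 and 43.0 in FOXL2C134W+FOXO1. The difference between the forms was -0.03 there (SE 0.064, edgeR adjusted p = 0.889).

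DDX58 (RIG-I, chromosome 9, 32455302 to 32526208, minus strand) had 509, 516 and 553 CPM in Vectors, 513, 527 and 490 in FOXL2WT and 435, 435 and 464 in FOXL2C134W. Here too the FOXL2C134W libraries were the lowest of the 9 without FOXO1. The fall against Vectors was -0.24 on the log2 scale (SE 0.055, edgeR adjusted p = 0.0052) and that against FOXL2WT -0.20 (SE 0.055, adjusted p = 0.0245). The latter call was lost without FOXL2WT replicate A (adjusted p = 0.0740), FOXL2WT replicate B (0.130), FOXL2C134W replicate A (0.0577) or FOXL2C134W replicate B (0.119), and in DESeq2 with transcript length offsets (0.0672).

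IFIH1 (MDA5, chromosome 2, 162267074 to 162318684, minus strand) had 158, 149 and 163 CPM in Vectors, 139, 139 and 140 in FOXL2WT and 122, 128 and 134 in FOXL2C134W, with no overlap between any pair of these conditions. It fell by -0.29 on the log2 scale in FOXL2C134W against Vectors (SE 0.073, edgeR adjusted p = 0.0112), a call lost without Vectors replicate C (0.0627) and in DESeq2 with transcript length offsets (0.0686). The differences of -0.17 between FOXL2WT and Vectors (adjusted p = 0.196) and of -0.12 between the FOXL2 forms (adjusted p = 0.327) did not pass. With FOXO1, IFIH1 had 123, 141 and 150 CPM in FOXL2WT+FOXO1 and 128, 131 and 159 in FOXL2C134W+FOXO1, a difference of 0.01 (SE 0.074, edgeR adjusted p = 0.965).

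MAVS, the mitochondrial adaptor of DDX58 and IFIH1, moved the other way. MAVS (chromosome 20, 3846799 to 3876123, plus strand) had 42.0, 41.1 and 37.4 CPM in Vectors, 38.1, 37.2 and 37.6 in FOXL2WT and 47.3, 52.4 and 56.9 in FOXL2C134W. It rose in FOXL2C134W by 0.47 against FOXL2WT (SE 0.076, edgeR adjusted p = 0.0007) and by 0.38 against Vectors (SE 0.075, adjusted p = 0.0022), on the log2 scale, and both calls held in 6 of 6 fits that left out a library and under all 7 other settings. With FOXO1 its level was 37.3, 45.1 and 37.0 CPM in FOXL2WT+FOXO1 and 40.6, 41.4 and 43.3 in FOXL2C134W+FOXO1. All FOXL2C134W+FOXO1 libraries lay below all FOXL2C134W libraries, but the difference of -0.32 (SE 0.075) did not pass (edgeR adjusted p = 0.0545). It passed in 1 of 6 fits that left out a library, that without FOXL2C134W replicate A (0.0068). It also passed in 3 of 7 other settings: DESeq2 (0.0088), 1 count in any library (0.0002) and 10 counts in every library (0.0370).

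TBK1 and IRF3, on which the routes converge, were called in no comparison. TBK1 (chromosome 12, 64452090 to 64502114, plus strand) ran from 61.2 to 76.5 CPM and IRF3 (chromosome 19, 49659569 to 49665875, minus strand) from 39.9 to 49.1 CPM. IRF3 was lower in each FOXL2C134W library (45.3, 39.9 and 45.5 CPM) than in each FOXL2WT library (46.5, 47.0 and 49.0 CPM), a difference of -0.13 on the log2 scale (SE 0.061, edgeR adjusted p = 0.206). CGAS, IFI16, TBK1, IRF3 and DDX58 overlap the spans of other annotated genes, so part of their reads may belong to a neighbour. Whether the quantification used strand is not given in the sources used here. For DDX58 and TBK1 a neighbour lies on the same strand, where strand would not separate the reads.

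**Figure D3:**
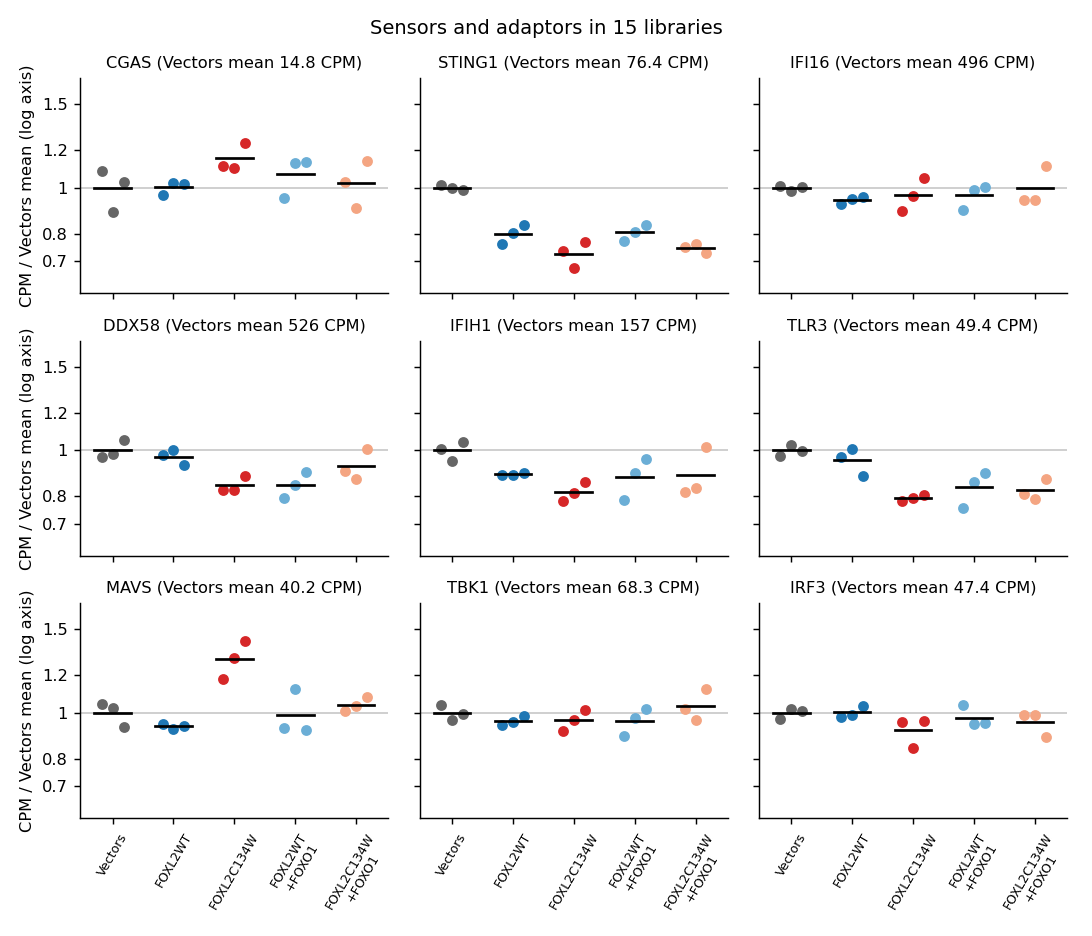
CPM of the 9 members other than IFNB1 in each library, divided by the mean of the Vectors libraries (y axis, log scale), by condition, with replicates A, B and C from left to right and the condition mean as a black line. STING1 is below Vectors in the 12 libraries with FOXL2, and MAVS is above the other conditions in FOXL2C134W.

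The members called in each comparison were set beside the share called among all genes tested. The members were chosen with earlier results of these data known, so these counts are a description. Leaving IFNB1 aside, 1 of 9 members was called between FOXL2WT and Vectors, lower, where 6.07% of all genes tested were called (2.46% higher and 3.61% lower). Between FOXL2C134W and Vectors 5 of 9 were called, 1 higher and 4 lower, against 14.7% of all genes (7.48% higher and 7.24% lower). Between FOXL2C134W and FOXL2WT 3 of 9 were called, 1 higher and 2 lower, against 11.2% (7.13% higher and 4.12% lower). These 3 comparisons share libraries, so their counts also depend on each other. With FOXO1 added to FOXL2WT 0 of 9 members were called, where 0.0505% of genes were (0.0144% higher and 0.0361% lower). With FOXO1 added to FOXL2C134W 0 of 9 were called too, where 0.714% of genes were (0.00721% higher and 0.707% lower). Between FOXL2C134W+FOXO1 and FOXL2WT+FOXO1 0 of 9 members were called, against 0.144% of genes (0.0361% higher and 0.108% lower). In these comparisons few genes of any kind passed in edgeR: 7, 99 and 20 of 13868, against 1266, 1557 and 1878 with an unadjusted p under 0.05.

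**Figure D4:**
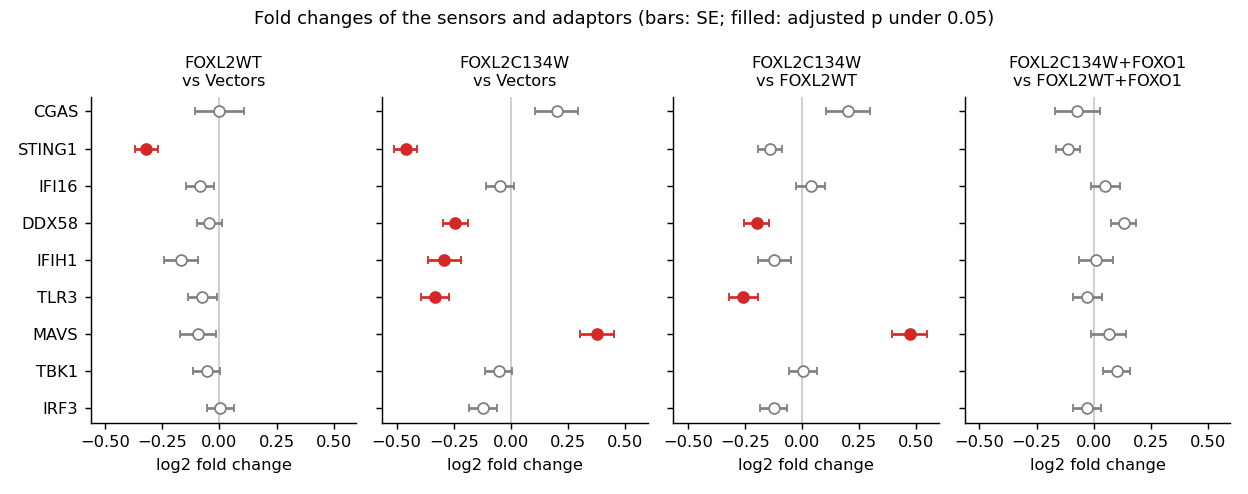
Log2 fold change (x axis) of the 9 members other than IFNB1 in 4 comparisons, with bars for the SE and filled points where the edgeR adjusted p is under 0.05. Filled points number 1, 5, 3 and 0 from left to right, and MAVS is the member that rose.

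The change that FOXO1 brought in FOXL2C134W minus the change it brought in FOXL2WT (the interaction) was called for 1 of 9 members, higher, where 1.38% of all genes were (0.137% higher and 1.25% lower). DDX58 had 418, 444 and 473 CPM in FOXL2WT+FOXO1 and 476, 458 and 530 CPM in FOXL2C134W+FOXO1, so that the difference between the FOXL2 forms was -0.20 without FOXO1 and 0.13 (SE 0.055, adjusted p = 0.307) with it. The interaction was 0.33 on the log2 scale (SE 0.078, edgeR adjusted p = 0.0415). It was called in 3 of 12 fits that left out a library, those without FOXL2C134W replicate A, FOXL2WT+FOXO1 replicate C or FOXL2C134W+FOXO1 replicate B, and the other 9 gave adjusted p from 0.0506 to 0.144. For MAVS the interaction was -0.40 (SE 0.11, adjusted p = 0.0747), and -0.48 (adjusted p = 0.0151) without FOXL2C134W replicate A. For IFNB1 it was 0.29 (SE 0.85), as a description.

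The rest of the pathway was followed in 8 lists, chosen with earlier results of these data known, so their counts are a description. Among the further RNA sensors and adaptors, 6 of 12 tested were called between FOXL2C134W and FOXL2WT, 5 lower and 1 higher, where 11.2% of all genes were called (4.12% lower and 7.13% higher), with a median log2 fold change of -0.06 beside -0.01 over all genes. OASL, an antiviral protein related to the oligoadenylate synthetases, fell by -0.32 (SE 0.042, adjusted p = 0.0001), from a mean of 314 to 251 CPM. OAS1, which activates RNase L, fell by -0.22, and ZC3HAV1, the zinc finger antiviral protein, by -0.24. Of 12 genes for sensing and clearance of DNA, 2 were called, again beside 11.2% of all genes: TRIM56, a ubiquitin ligase of the STING1 route, rose by 0.46 and DNASE2, the lysosomal nuclease, fell by -0.21 (median of the list -0.10). The call of TRIM56 was lost in DESeq2 with transcript length offsets (0.35, adjusted p = 0.577). That of DNASE2 was lost there too (0.113), and without FOXL2WT replicate B (0.114) or C (0.0890) or FOXL2C134W replicate B (0.123) or C (0.0660).

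Of 7 endosomal Toll-like receptors and adaptors 1 was called, MYD88, the shared Toll adaptor, which fell by -0.19 (median of the list -0.09), and of 9 kinases and scaffolds around TBK1 1 was called, AZI2, a TBK1 adaptor, which fell by -0.17 (median -0.05), where 4.12% of all genes were called lower. Both calls were lost in most fits that left out a library. That of MYD88 was lost without FOXL2WT replicate A (adjusted p = 0.0514) or B (0.137) or FOXL2C134W replicate B (0.170) or C (0.0569), and in DESeq2 with transcript length offsets (0.0637). That of AZI2 was kept in 1 of 6 fits that left out a library: it was lost without FOXL2WT replicate A (0.0503) or C (0.140) or FOXL2C134W replicate A (0.0591), B (0.0879) or C (0.0512).

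Of 12 factors that bind or assemble on the IFNB1 promoter, 3 were called between the FOXL2 forms, beside 11.2% of all genes, with a median of -0.02. CREBBP and EP300, acetyltransferases recruited to that promoter, rose by 0.82 (SE 0.10, edgeR adjusted p = 5.97e-05) and 0.51 (SE 0.073, adjusted p = 0.0002). IRF2, an antagonist of IRF1, had -0.16, a call made under 0 of 7 other settings (adjusted p from 0.0591 to 0.653) and lost in all fits that left out a library but that without FOXL2C134W replicate B: without FOXL2WT replicate A, B or C it was 0.0993, 0.161 and 0.121, and without FOXL2C134W replicate A or C 0.133 and 0.173. CREBBP had 32.4, 28.1 and 30.5 CPM in FOXL2WT and 45.9, 56.8 and 58.4 in FOXL2C134W. In DESeq2 with transcript length offsets CREBBP was 1.01 higher (adjusted p = 0.0021), and the call of EP300 was lost (0.29, adjusted p = 0.476).

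Of 9 negative regulators of sensing 3 were called, all lower, where 4.12% of all genes were, with a median of -0.02: TNFAIP3 (A20), the ubiquitin editing brake on NF-kappaB, fell by -0.38, USP18, which removes ISG15 from proteins, by -0.34 and RNF5, a ubiquitin ligase, by -0.25. The call of RNF5 was lost without FOXL2WT replicate A (0.0788), B (0.188) or C (0.0635) or FOXL2C134W replicate B (0.164) or C (0.146), and in DESeq2 with transcript length offsets (0.0829). The 8 interferon ligand, receptor and signalling genes tested had a median of -0.07.

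In a list chosen with earlier results of these data known, genes that interferon induces early were lower with FOXL2C134W than with FOXL2WT, without FOXO1. Of 11 such genes, 7 were called between FOXL2C134W and FOXL2WT, all lower, where 4.12% of all genes were, with a median log2 fold change of -0.30 beside -0.01 over all genes. IFIT2, an antiviral RNA binding protein, had 436, 440 and 431 CPM in FOXL2WT and 218, 247 and 278 in FOXL2C134W, a change of -0.81 (SE 0.087, edgeR adjusted p = 1.52e-05). RSAD2 (viperin), an antiviral enzyme, fell by -0.51 (SE 0.068, adjusted p = 0.0001), from a mean of 151 to 106 CPM, and IFIT1 by -0.34. Against Vectors, 10 of the 11 fell in FOXL2C134W (median -0.53, with 7.24% of all genes called lower) and 6 in FOXL2WT (median -0.23, with 3.61%). With FOXO1 added to both forms 0 of 11 were called (median -0.02), beside 0.144% of all genes, and IFIT2 had 325, 372 and 375 CPM in FOXL2WT+FOXO1 against 241, 241 and 309 in FOXL2C134W+FOXO1 (-0.44, SE 0.087, adjusted p = 0.0508). Of all 8 lists TNFAIP3 was the gene called in that comparison, at -0.29 (SE 0.053, adjusted p = 0.0273). Its libraries had 62.0, 68.0 and 71.3 CPM in FOXL2WT+FOXO1 and 53.7, 53.9 and 56.8 in FOXL2C134W+FOXO1, and did not overlap. The call was lost in DESeq2 with transcript length offsets (adjusted p = 0.451), with only the conditions compared in the fit (0.204), and in 5 of 6 fits that left out a library: without FOXL2WT+FOXO1 replicate B (0.132) or C (0.106) or FOXL2C134W+FOXO1 replicate A (0.165), B (0.0799) or C (0.0511).

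**Figure D5:**
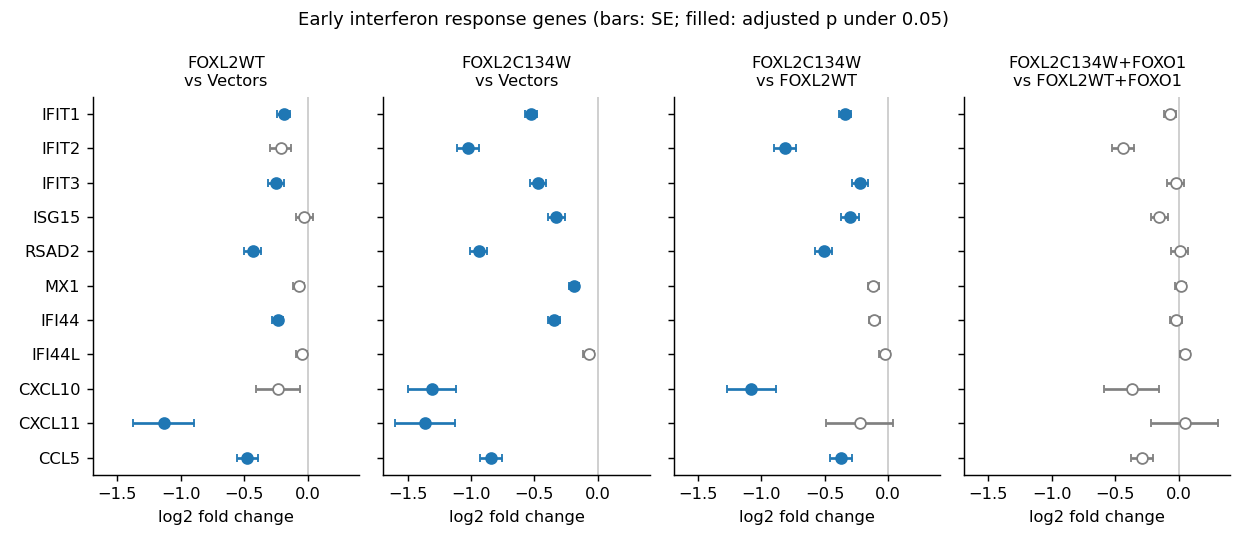
Log2 fold change (x axis) of the 11 early interferon response genes in 4 comparisons, with bars for the SE and filled points where the edgeR adjusted p is under 0.05. Filled points number 6, 10, 7 and 0 from left to right, and all of them are to the left of 0.

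Over the 15 libraries, the genes whose log2-CPM followed that of IFNB1 most closely among 13867 were KLF4 (Pearson r = 0.954), a zinc finger transcription factor, PMAIP1 (0.954), the apoptosis inducer NOXA, TNFAIP3 (0.932), SHFL (0.929), an antiviral inhibitor of frameshifting, and CXCL8 (0.925), the chemokine interleukin 8. CXCL8 averaged 143 CPM in Vectors, 97.5 in FOXL2WT, 53.5 in FOXL2C134W, 87.0 in FOXL2WT+FOXO1 and 49.2 in FOXL2C134W+FOXO1. KLF4 averaged 20.0, 16.1, 9.30, 12.7 and 8.86 CPM in the same order of conditions. The means of both genes ranked the 5 conditions as those of IFNB1 did. The most opposed were EIF4B (-0.924), TPM2 (-0.907) and AKAP1 (-0.905). Among the members, TLR3 (0.821) and STING1 (0.762) lay closest to IFNB1, then IRF3 (0.563), DDX58 (0.557), IFIH1 (0.467), IFI16 (-0.041), TBK1 (-0.215), CGAS (-0.329) and MAVS (-0.425). For the transfected genes r was -0.324 (FOXL2), 0.150 (SMAD3) and -0.420 (FOXO1). These correlations describe 15 libraries of 5 conditions, with IFNB1 at 2 to 41 counts, and carry no test.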

How the data were processed

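RNA was measured in 15 libraries, grouped by their labels into 5 conditions of 3 replicates. Per the study's methods, TruSeq stranded mRNA libraries were read as 75-bp single-end reads and quantified with salmon 1.1.0 on hg38. The authors deposited estimated counts summed to genes and rounded to whole numbers, with no normalization, and per-transcript tables of estimated counts and TPM. Because reads were shared among transcripts by estimation, genes with near-identical copies or overlaps are uncertain.

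Gene counts were analysed with edgeR 4.0.16 in R 4.3.3: filterByExpr (minimum count 10), TMM scaling and the quasi-likelihood test over all 15 libraries, with Benjamini-Hochberg adjusted p under 0.05 called. The SE of a log2 fold change is its size divided by the root of F. TPM served to compare levels between genes, and log2-CPM had a prior count of 2. DESeq2 1.42.0, other filters and scaling, a replicate block and leaving out each library were alternatives, and the test was checked on simulated counts. Totals of 14962245 to 25339094 counts limit IFNB1 to 2 to 41 counts, and intervals cover counting error only, as there were no molecular identifiers.

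The members and the lists were chosen with earlier results of these data known. Genes named beside the members were up to 3 per list with the smallest p among those called between the FOXL2 forms, without or with FOXO1, the 5 most and 3 least correlated with IFNB1, and the transfected genes. Names and coordinates came from GENCODE 44 and promoters from RefSeq GRCh38.p14. A result for 1 further list gene is not reported here.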

Additional observations from a re-analysis of the deposited data

Results flagged for a closer look

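The interaction term was called (edgeR adjusted p under 0.05) for 8 of the genes named, the transfected FOXL2, SMAD3 and FOXO1 among them. Of all genes tested 1.38% were called (0.137% higher and 1.25% lower). The cause of each of the 8 was not tested. Among the members it was DDX58, with an interaction of 0.33 on the log2 scale (adjusted p = 0.0415). As given above, it was called in 3 of 12 fits that left out a library. Among the pathway lists, CREBBP had -0.87 (adjusted p = 0.0065), TRIM56 -0.49 (adjusted p = 0.0175) and EP300 -0.49 (adjusted p = 0.0238), each higher in FOXL2C134W than in FOXL2WT without FOXO1. In DESeq2 with transcript length offsets none of these 3 was called (adjusted p = 0.157, 0.880 and 0.852). The call of TRIM56 was lost in 4 of 12 fits that left out a library: without FOXL2WT B (0.0588), FOXL2C134W C (0.0506), FOXL2WT+FOXO1 B (0.0609) or FOXL2C134W+FOXO1 A (0.0703). That of EP300 was lost in 6 of 12: without FOXL2WT B (0.0679) or C (0.0669), FOXL2C134W B (0.0697) or C (0.0768), FOXL2WT+FOXO1 B (0.0912) or FOXL2C134W+FOXO1 A (0.0822). RSAD2 had 0.52 (adjusted p = 0.0125): it averaged 151 CPM in FOXL2WT and 120 in FOXL2WT+FOXO1, and 106 in FOXL2C134W and 121 in FOXL2C134W+FOXO1. CREBBP, TRIM56, EP300 and RSAD2 were named for their small p-values between the FOXL2 forms without FOXO1. The interaction subtracts that same difference, so this choice favours an interaction of the opposite sign. Their adjusted p-values for the interaction are therefore given as a description. The transfected genes themselves had interactions of 0.60 for FOXL2 (adjusted p = 0.0333), 0.41 for SMAD3 (adjusted p = 0.0065) and -1.41 for FOXO1 (adjusted p = 4.72e-05). Their RNA therefore differed between the conditions in the same comparison that the other 5 genes passed in.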

How the results depend on the processing

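Of 961 values of the members under other settings, 875 kept their direction and their side of the threshold. No change of count below was traced to its cause beyond the setting named. Genes called numbered 842 for FOXL2WT vs Vectors, 2041 for FOXL2C134W vs Vectors, 1560 for FOXL2C134W vs FOXL2WT, 7 for FOXL2WT+FOXO1 vs FOXL2WT, 99 for FOXL2C134W+FOXO1 vs FOXL2C134W, 20 for FOXL2C134W+FOXO1 vs FOXL2WT+FOXO1 and 192 for the interaction. In this order they were 493, 970, 764, 69, 61, 65 and 126 in DESeq2 with transcript length offsets. With 1 count in any library as the filter they were 1345 for the first, and 260, 463, 446 and 551 for the last 4, where DESeq2 gave 62, 223, 95 and 365. With at least 10 counts in every library the 3 comparisons of conditions with FOXO1 gave 13, 170 and 32, and with only the conditions compared in the fit they gave 14, 32 and 9, and FOXL2WT vs Vectors gave 1690. Leaving out a library gave 305 to 662, 1275 to 2126, 772 to 2120, 2 to 7, 5 to 355, 7 to 20 and 45 to 423. The lowest and highest were without Vectors A and FOXL2WT C for FOXL2WT vs Vectors, without FOXL2C134W B and A for FOXL2C134W vs Vectors, and without FOXL2WT B and FOXL2C134W A for the FOXL2 forms. For FOXL2C134W+FOXO1 vs FOXL2C134W the lowest, 5, was reached without FOXL2C134W B, FOXL2C134W C or FOXL2C134W+FOXO1 C, and the highest without FOXL2C134W A. For the interaction they were without FOXL2C134W+FOXO1 A and FOXL2C134W A. Without FOXL2WT+FOXO1 B there were 2 for FOXL2WT+FOXO1 vs FOXL2WT, and without FOXL2C134W+FOXO1 A 7 between the conditions with FOXO1.

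Members called changed as follows. With 1 count in any library they were 2 for FOXL2WT vs Vectors (IFIH1 in addition) and 2 for the interaction. With that filter they were 1 in each comparison of conditions with FOXO1 (DDX58, MAVS and IFNB1, the last not read as a test). With only the conditions compared they were 2 for FOXL2WT vs Vectors and 0 for the interaction. In DESeq2 MAVS was called for FOXL2C134W+FOXO1 vs FOXL2C134W, as with 10 counts in every library (1 member each), and 2 members for the interaction. With transcript length offsets 1 member, MAVS, was called between the FOXL2 forms. Leaving out a library gave 1 to 3 members between the FOXL2 forms, 0 to 1 for FOXL2C134W+FOXO1 vs FOXL2C134W and 0 to 2 for the interaction. IFNB1 has no value with 10 counts in every library, a filter it does not pass.

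The replicate block, with the letter as a term, changed no member's call and gave 163 genes for the interaction. The letters showed no pairing of the libraries over all genes tested: deviations from the condition means correlated at -0.16 to 0.17 over 30 same-letter pairs, with a median of 0.0036 against 0.0058 for other letters. A shared batch limited to some genes could give such values too, so a pairing is not excluded.

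The values that changed sign are given here on the log2 scale. CGAS for FOXL2WT vs Vectors was -0.0040 in DESeq2, -0.0043 with its size factors, -0.00079 and -0.0030 with the lower and the higher filter and -0.0017 with the replicate block. With transcript length offsets, FOXL2C134W vs Vectors gave 0.0047 for IFI16, 0.053 for IRF3 and -0.12 for EP300, and the FOXL2 forms -0.10 for TBK1. With the same offsets FOXL2C134W+FOXO1 vs FOXL2C134W gave -0.044 for STING1 and -0.023 for IFI16, the conditions with FOXO1 gave 0.13 for IRF3 and -0.0016 for IFIH1, and the interaction -0.091 for STING1 and -0.12 for IFI16. Of these, the difference called in edgeR was that of EP300 (0.33).
Leaving out a library, FOXL2WT vs Vectors ran from -0.074 to 0.060 for CGAS and -0.021 to 0.020 for IRF3. FOXL2C134W vs Vectors ran from -0.11 to 0.012 for IFI16, and the FOXL2 forms from -0.024 to 0.10 for IFI16 and -0.033 to 0.047 for TBK1. FOXL2WT+FOXO1 vs FOXL2WT ran from -0.026 to 0.046 for STING1, -0.019 to 0.14 for MAVS, -0.039 to 0.053 for TBK1 and -0.076 to 0.063 for IFIH1. FOXL2C134W+FOXO1 vs FOXL2C134W ran from -0.015 to 0.079 for STING1, -0.040 to 0.11 for IFI16 and -0.0082 to 0.10 for IRF3. The conditions with FOXO1 ran from -0.15 to 0.010 for CGAS, -0.031 to 0.092 for IFI16, -0.055 to 0.027 for IRF3, -0.092 to 0.024 for TLR3 and -0.093 to 0.076 for IFIH1. The interaction ran from -0.028 to 0.84 for IFNB1, -0.025 to 0.069 for STING1 and -0.074 to 0.076 for IFI16. Depth limits IFNB1 most, at 2 to 9 counts in each library with FOXL2C134W.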
